A study of Mus musculus with 4 samples.

Results

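The translation initiation factor genes of the mouse cortex at embryonic day 15.5 were set against each other in sorted neural progenitor cells (NPCs) and in sorted young neurons. The members were the rows of the gene count table whose symbol is Eif followed by a digit from 1 to 6, without the argonaute genes once named Eif2c1 to Eif2c4 and without Eif2ak3 and Eif2s3y. This gave 52 of the 23240 rows, of which 51 passed the filter on low counts. Eif4e1b, an eIF4E gene, had a count of 0 in each of the 4 libraries and was not tested. All embryos came from a cross of Nestin-GFP heterozygotes with DCX-mRFP homozygotes and carried both reporters, so both groups share the 2 transgenes. Cells with green fluorescence alone made up the NPC group, and cells with both colours made up the neuron group, with 2 libraries of total RNA each. The labels call the libraries of a group duplicates and do not say how many embryos or litters each came from, so the spread behind the p-values is that between these libraries only and may be technical.

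Initiation factors bring the ribosome to the start codon of an mRNA. The eIF4F complex, made of the cap-binding protein eIF4E, the scaffold eIF4G and the RNA helicase eIF4A, loads the small ribosomal subunit onto the capped end, with eIF3 as the bridge. eIF2 carries the initiator tRNA, eIF2B recharges eIF2 with GTP, and the eIF2 kinases stop that recharging under stress. The 4E-binding proteins hold eIF4E away from eIF4G until the kinase mTORC1 phosphorylates them. In the developing cortex, control of translation is known to take part in the choice between progenitor and neuronal fates.

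Library totals ran from 52611828 to 55615142 counts. Levels are given in CPM (counts per 1000000 counts of the scaled library), group values as mean ± SD with n = 2, and changes as log2 of neurons over NPCs ± standard error (SE). Each adjusted p-value comes from the quasi-likelihood test of edgeR, adjusted by Benjamini-Hochberg over all 15292 genes tested, and a gene was called at an adjusted p under 0.05. Marker genes followed the labels, since 7 of 7 radial glia markers were higher in NPCs and 5 of 6 neuron markers were higher in neurons. The seventh neuron marker, Map2, matched no row under that symbol. These lists include Nes and Dcx, the genes of the sorting reporters, whose direction is not independent of the sort. All 3 intermediate progenitor markers and all 4 markers of cycling cells were also higher in NPCs. Markers of other cells differed between the sorts too. All 6 endothelial, 5 oligodendrocyte precursor, 4 pericyte, 5 microglia and 4 erythroid markers were higher in NPCs, and none was at 0 in any library. Their summed levels in NPCs and in neurons were 149 to 152 and 4.94 to 5.46 CPM for endothelial markers, 170.3 to 178 and 2.85 to 3.58 CPM for oligodendrocyte precursor markers, and 142 to 147 and 5.46 to 5.55 CPM for pericyte markers. They were 25.9 to 26.6 and 12.3 to 12.9 CPM for microglia markers, and 949 to 1153 and 156 to 159 CPM for erythroid markers.

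Most initiation factor genes differed little between NPCs and neurons. Of 51 tested, 13 (25.5%) were higher in neurons and 12 (23.5%) were higher in NPCs, where 35.8% and 36.9% of all tested genes were called in those directions. Together 49.0% of the members were called, against 72.6% of all tested genes. At an unadjusted p under 0.05 these were 28 members (54.9%) and 74.4% of all tested genes. The median log2 change of the members was -0.03, and that of all tested genes was -0.02. The median size of the change, in either direction, was 0.14 for the members and 0.50 for all tested genes on the log2 scale. For 39 members (76.5%) the log2 change lay within 0.25 of 0, which was the case for 29.9% of all tested genes. Only 4 members (7.84%) were called with a log2 change of at least 0.5, where 47.4% of all tested genes were. These were Eif4a2, higher in neurons, and Eif4ebp1, Eif2ak2 and Eif4e3, higher in NPCs. The members were also more abundant than the typical gene, with a median of 157 CPM against 22.2 CPM. Fewer cells of a type and less RNA per cell cannot be told apart in such bulk samples.

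**Figure D1:**
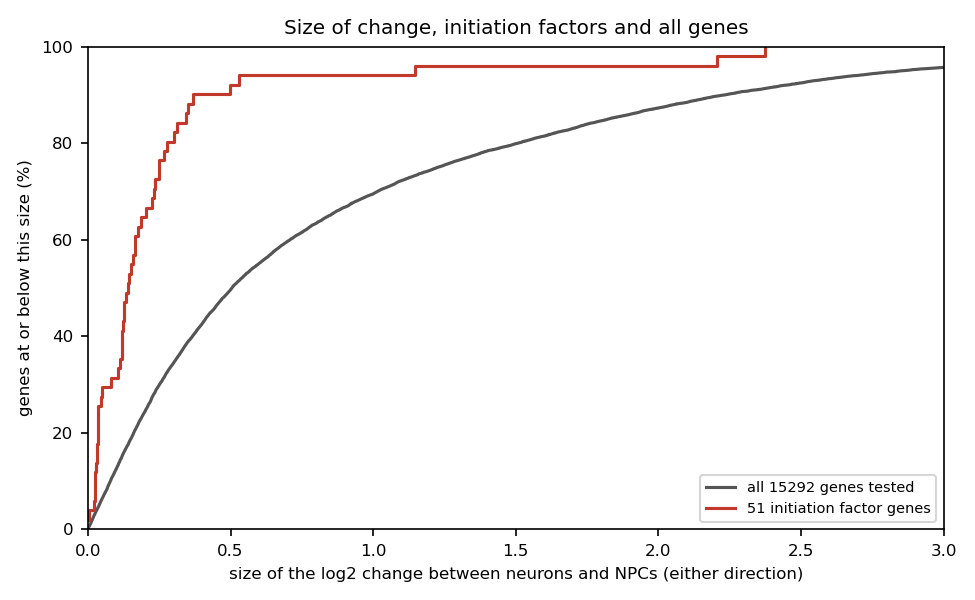
Cumulative share of genes (vertical axis, %) by the size of the log2 change between neurons and NPCs in either direction (horizontal axis), for the 51 initiation factor genes and all 15292 genes tested. The initiation factor curve rises earlier, with a median of 0.14 against 0.50, and has 3 genes beyond 1.

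The sign of many small changes depended on scaling, and whether they were called depended on scaling and on single libraries. A fit without 1 library leaves 1 library in that group, whose spread then does not enter the p-values. Without a neuron library they rest on the NPC duplicates, which differed less from each other than the neuron duplicates did. Calls gained without a neuron library are thus not read as differences. Under upper-quartile factors the all-gene median log2 change was -0.12 and left 7 members higher in neurons and 27 higher in NPCs. With library size as the only scaling these were -0.23, 2 and 36. Without NPC replicate 1, 7 members were called higher in neurons, and without NPC replicate 2, 8 were. Of the 25 called members, 10 kept their call under all 12 alternatives, namely Eif4a2 and Eif3e on the neuron side, and Eif4ebp1, Eif2ak2, Eif4e3, Eif3j, Eif4g1, Eif2b2, Eif1b and Eif1ax on the NPC side. Calls were lost without NPC replicate 1 for Eif1ad, Eif2s1, Eif2s3x, Eif3g, Eif3h, Eif4b, Eif4g2, Eif4g3, Eif5 and Eif5b, and without NPC replicate 2 for the same genes except Eif3g and Eif5. In these 18 cases the log2 change kept its direction and was 69.7% to 130.1% of its value with all libraries. The levels of the 2 groups did not overlap for 40 members (78.4%), where 86.0% of all tested genes had groups that do not overlap.

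**Figure D2:**
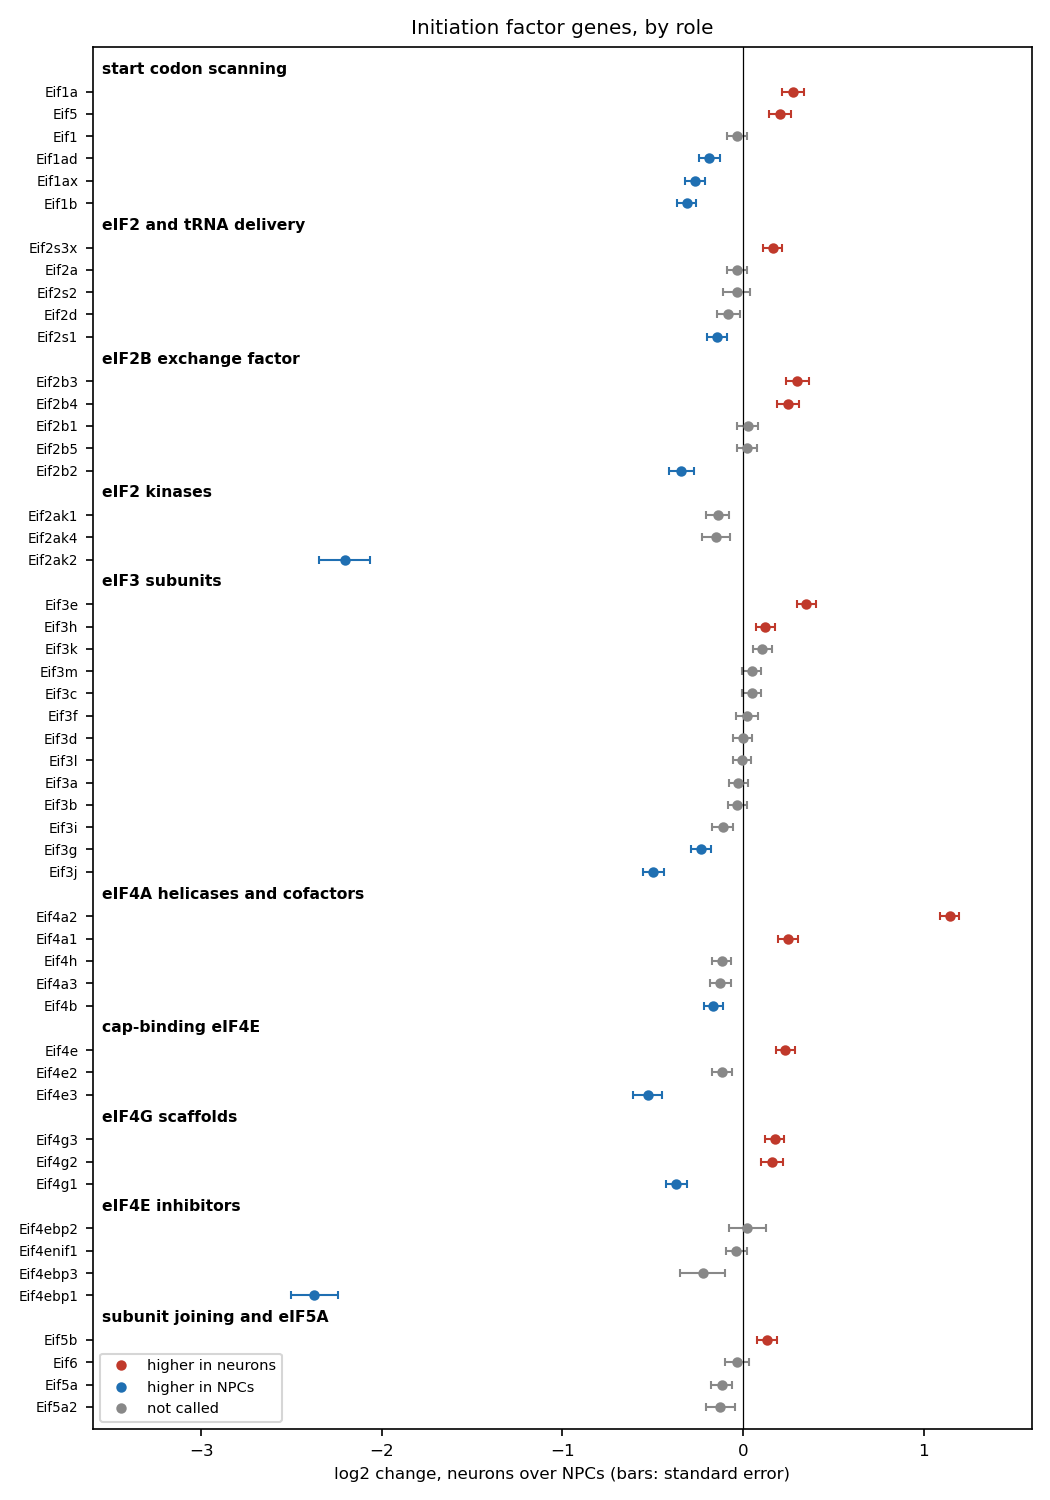
Log2 change of neurons over NPCs (horizontal axis, points with SE bars) for the 51 tested initiation factor genes, grouped by role and coloured by call at an adjusted p under 0.05. Most points lie within 0.25 of 0, while Eif4a2 stands at 1.14 and Eif2ak2 and Eif4ebp1 at -2.20 and -2.37.

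The eIF4A helicases unwind the leader of an mRNA, and the paralogs Eif4a1 and Eif4a2 both encode the eIF4F subunit, while Eif4a3 encodes the helicase of the exon junction complex. Eif4a2 was at 314 and 311 CPM in the NPC libraries and at 701 and 681 CPM in the neuron libraries. Both neuron libraries were thus far above both NPC libraries. Its level rose 2.21-fold, a log2 change of 1.14 ± 0.05 (edgeR adjusted p = 5.8e-12), and the change ran from 0.94 to 1.17 over the alternatives. Eif4a1 was at 975 and 957 CPM in NPCs and at 1107 and 1188 CPM in neurons. The groups did not overlap, and its log2 change of 0.25 ± 0.06 was called (edgeR adjusted p = 8.5e-04) but was 0.04 when libraries were scaled by their size alone (adjusted p = 0.51). Eif4a3 was at 142 and 146 CPM in NPCs and at 137 and 127 CPM in neurons. Its log2 change of -0.13 ± 0.06 was not called (edgeR adjusted p = 0.053), although it was called by limma-voom (-0.13). Without neuron replicate 1 it was -0.17, and without neuron replicate 2 it was -0.06. Of the cofactors that stimulate eIF4A, Eif4b was called higher in NPCs at -0.16 ± 0.05 on the log2 scale. Eif4h was not called at -0.12 ± 0.05, but was called by limma-voom (-0.12). Its log2 change was -0.13 without neuron replicate 1 and -0.08 without neuron replicate 2.

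The coding sequences of the 3 helicases were set side by side to show how alike they are. They are from GENCODE M21 (GRCm38), and the stretch shown holds the codons of the DEAD motif, the helicase signature that names the protein family, with 36 bases on either side. It is coding exon sequence at bases 508 to 591 of the Eif4a1 coding sequence, 514 to 597 of Eif4a2 and 523 to 606 of Eif4a3, printed 5′ to 3′ with capitals at letters that differ from Eif4a1. The genes lie at chr11:69666936-69672423 (minus strand), chr16:23107444-23114136 (plus strand) and chr11:119288363-119300089 (minus strand).
Eif4a1: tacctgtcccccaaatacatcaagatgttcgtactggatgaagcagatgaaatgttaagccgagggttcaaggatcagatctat
Eif4a2: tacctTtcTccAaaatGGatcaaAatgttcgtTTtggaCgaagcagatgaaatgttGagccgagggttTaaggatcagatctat
Eif4a3: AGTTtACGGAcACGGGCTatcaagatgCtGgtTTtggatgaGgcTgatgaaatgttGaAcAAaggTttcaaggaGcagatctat
Of the 84 bases, Eif4a2 differed from Eif4a1 at 11 and Eif4a3 differed from it at 28. Over the whole aligned coding sequences, Eif4a2 was 77.6% and Eif4a3 65.1% identical to Eif4a1. No window of 101 bases, the read length that the steps in the deposited values fit, was shared between annotated transcripts of Eif4a1 and Eif4a2. Only exact matches were counted, so this does not cover reads aligned with mismatches. However, 60.8% of the 101-base windows of Eif4a1 also occurred in the processed pseudogene Eif4a-ps4, against 3.8% of those of Eif4a2 in any other gene, so the Eif4a1 level is uncertain.

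The cap-binding genes moved in different directions. Eif4e, the cap-binding subunit of eIF4F, was at 283 and 285 CPM in NPCs and at 344 and 325 CPM in neurons. This was a log2 change of 0.23 ± 0.05 (edgeR adjusted p = 9.3e-04), with groups that did not overlap, and it was 0.03 with library size as the only scaling (adjusted p = 0.650). Eif4e3, a less abundant relative, was at 24.9 and 24.4 CPM in NPCs and at 17.4 and 16.8 CPM in neurons. It was thus 1.44-fold higher in NPCs, with a log2 change of -0.53 ± 0.08 (edgeR adjusted p = 1.3e-05). For Eif4e3, 7.45% of 101-base windows were shared with the overlapping gene model Gm20696. Eif4e2, whose protein binds the cap without eIF4G and is known as a translational repressor, was at 84.5 and 82.1 CPM in NPCs and at 75.2 and 78.4 CPM in neurons and was not called (-0.12 ± 0.06 on the log2 scale, edgeR adjusted p = 0.071). Its log2 change was -0.14 without neuron replicate 2 and -0.08 without neuron replicate 1.

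The eIF4G scaffolds also split. Eif4g1, the main scaffold of eIF4F, was at 184 and 189 CPM in NPCs and at 137 and 151 CPM in neurons. It was higher in both NPC libraries, with a log2 change of -0.37 ± 0.06 (edgeR adjusted p = 2.6e-05). Eif4g3, its close paralog, was at 111 and 114 CPM in NPCs and at 127 and 127 CPM in neurons, and its log2 change was 0.18 ± 0.05 (edgeR adjusted p = 0.0070). Eif4g2, which encodes a shortened scaffold that lacks the eIF4E-binding part, had the most CPM of all members. It was at 2051 and 2190 CPM in NPCs and at 2259 and 2475 CPM in neurons, and its log2 change was 0.16 ± 0.06 (edgeR adjusted p = 0.030). Neither Eif4g3 nor Eif4g2 was called without either NPC library, although their log2 changes were 0.15 and 0.20, and 0.11 and 0.21, without NPC replicate 1 and without NPC replicate 2. Their log2 changes became -0.03 and -0.05 when libraries were scaled by their size alone.

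Among the inhibitors of eIF4E, Eif4ebp1 had the largest change of the 51 tested members. It was at 14.2 and 12.8 CPM in the NPC libraries, from 817 and 763 counts, and at 2.81 and 2.40 CPM in the neuron libraries, from 137 and 124 counts. Its level was 5.18-fold higher in NPCs, at a log2 change of -2.37 ± 0.13 (edgeR adjusted p = 4.4e-11), with alternatives between -2.58 and -2.26. Its paralog Eif4ebp2, known as the main 4E-binding protein of the mature brain, was at 16.4 and 16.1 CPM in NPCs and at 14.7 and 18.3 CPM in neurons. The groups overlapped, and its log2 change of 0.02 ± 0.10 was not called (edgeR adjusted p = 0.84) under any of the 12 alternatives. Eif4ebp3 was at 10.7 and 9.03 CPM in NPCs and at 9.36 and 7.57 CPM in neurons and was not called (edgeR adjusted p = 0.12). Its log2 change was -0.34 without NPC replicate 2 and -0.37 without neuron replicate 1. It was -0.10 without NPC replicate 1 and -0.07 without neuron replicate 2. Its level is uncertain, since 62.7% of its windows occur in the read-through gene model AC115631.1. Eif4enif1, which encodes the eIF4E transporter, was not called at -0.04 ± 0.06. Endothelial and oligodendrocyte precursor markers moved with Eif4ebp1. Their summed levels in NPCs were 149 to 152 and 170.3 to 178 CPM. In neurons they were 4.94 to 5.46 and 2.85 to 3.58 CPM. Every other marker set except that of neurons was also higher in NPCs. Median log2 changes were -2.24 for radial glia, -2.51 for intermediate progenitor and -2.31 for cycling cell markers. They were -4.64 for endothelial, -5.92 for oligodendrocyte precursor, -4.68 for pericyte, -1.16 for microglia and -2.24 for erythroid markers. The part of any of these cells in the fall was not tested.

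**Figure D3:**
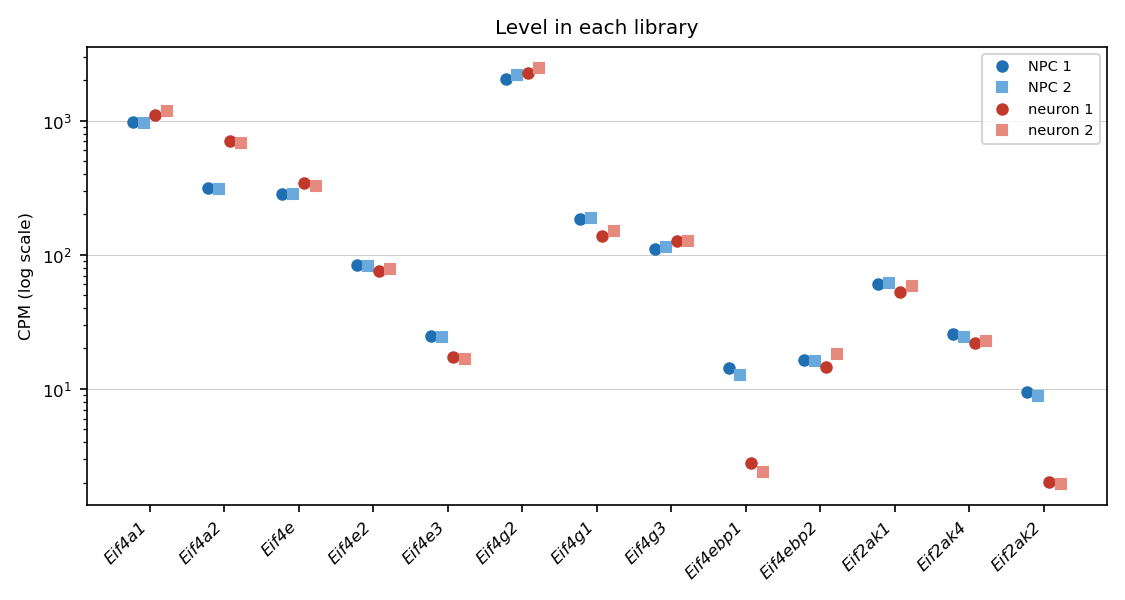
Level in CPM (log axis) of 13 genes of eIF4F, its inhibitors and the eIF2 kinases in each of the 4 libraries (blue, NPCs; red, neurons; circles, replicate 1; squares, replicate 2). The groups are far apart for Eif4a2 (311 and 314 against 681 and 701), Eif4ebp1 and Eif2ak2, and overlap for Eif4ebp2.

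The eIF2 kinases answer different stresses by phosphorylating the alpha subunit of eIF2. Eif2ak2 encodes PKR, the kinase that senses double-stranded RNA and is induced by interferon. It was at 9.48 and 8.90 CPM in NPCs, from 546 and 531 counts, and at 2.03 and 1.96 CPM in neurons, from 99 and 101 counts. It was 4.61-fold higher in NPCs, a log2 change of -2.20 ± 0.14 (edgeR adjusted p = 3.6e-10), with alternatives between -2.41 and -2.16. The other two kinases among the members changed far less. Eif2ak1, the heme-regulated kinase, was at 60.8 and 61.2 CPM in NPCs and at 52.6 and 58.0 CPM in neurons (log2 change -0.14 ± 0.06, edgeR adjusted p = 0.055). Its log2 change was -0.20 without neuron replicate 2 and -0.06 without neuron replicate 1. Of its exon bases, 11.3% overlap Aimp2 on the other strand. Eif2ak4, the kinase that senses uncharged tRNA, was at 25.4 and 24.3 CPM in NPCs and at 22.0 and 22.8 CPM in neurons (log2 change -0.15 ± 0.08, edgeR adjusted p = 0.085). Eif2ak2, like Eif4ebp1, moved with every marker set except that of neurons. These sets include the radial glia, intermediate progenitor and cycling cell markers as well as those of other cells. Their part in its fall was not tested.

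eIF2 and its exchange factor eIF2B showed small changes within each complex. Of the eIF2 subunits, alpha (Eif2s1) was higher in NPCs at a log2 change of -0.14 ± 0.05 and gamma (Eif2s3x) was higher in neurons at 0.16 ± 0.05, or -0.04 with library size as the only scaling. Eif2s1 was also not called without neuron replicate 2 (-0.09), and 34.5% of the windows of Eif2s3x occur in the processed pseudogene Gm2223. Eif2s2, the beta subunit, was at 157 and 152 CPM in NPCs and at 166 and 135 CPM in neurons, so its NPC libraries lay between its neuron libraries. It was not called, and its log2 change was -0.18 without neuron replicate 1 and 0.11 without neuron replicate 2. Of the windows of Eif2s2, 14.2% occur in the processed pseudogene Gm9892. Eif2a and Eif2d, which encode other carriers of initiator tRNA, were not called, at -0.03 ± 0.06 and -0.08 ± 0.06. In eIF2B, the catalytic subunit gene Eif2b5 was at 114 and 119.9 CPM in NPCs and at 122 and 116 CPM in neurons and was not called (log2 change 0.02 ± 0.06). Its partner in the catalytic part, Eif2b3, rose from 40.3 and 40.7 to 48.7 and 51.1 CPM (log2 change 0.30 ± 0.06, edgeR adjusted p = 4.1e-04). Of the regulatory subunits, Eif2b2 fell from 36.0 and 35.1 to 27.2 and 28.9 CPM (-0.34 ± 0.07, edgeR adjusted p = 3.0e-04), Eif2b4 had a log2 change of 0.25 ± 0.06, and Eif2b1 was not called at 0.02 ± 0.06. With library size as the only scaling, Eif2b3 and Eif2b4 were not called, at 0.09 and 0.04.

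The 13 eIF3 subunit genes changed little. For 11 of them the log2 change lay within 0.25 of 0, where 29.9% of all tested genes did, and the summed level of all 13 was 3097 and 3076 CPM in NPCs and 3134 and 3174 CPM in neurons. Of the 13, 4 were called, where 72.6% of all tested genes were, and the 9 not called included Eif3a and Eif3b, which encode the scaffold of the complex, at log2 changes of -0.03 ± 0.05 each. Eif3e, a PCI-domain subunit, rose from 294 and 294 CPM to 382 and 367 CPM (0.35 ± 0.05, edgeR adjusted p = 1.6e-05). Eif3j, a loosely bound subunit, fell from 75.3 and 73.9 CPM to 53.3 and 52.5 CPM (-0.50 ± 0.06, edgeR adjusted p = 7.8e-07). Its value is uncertain because 36.0% of the windows of its GENCODE match, Eif3j1, occur in the near-copy Eif3j2, and 20.5% of its exon bases overlap Spg11 on the other strand. Eif3g, an RNA-binding subunit, was higher in NPCs at -0.23 ± 0.06, and not called without NPC replicate 1 (-0.18). Eif3h was higher in neurons at 0.12 ± 0.05. It was not called without NPC replicate 1 (0.13) or without NPC replicate 2 (0.11). With library size as the only scaling it was at -0.09. Of its windows, 11.6% also occur in the processed pseudogene AC122253.2. Eif3d was not called (-0.0031 ± 0.05), and 32.9% of its exon bases overlap Gm17638 on the other strand. The log2 change of Eif3f was 0.11 without neuron replicate 1 and -0.06 without neuron replicate 2. For Eif3k it was 0.11 with all libraries and 0.13 without neuron replicate 1. For Eif3i it was -0.18 without neuron replicate 2 and -0.03 without neuron replicate 1.

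Genes for start codon scanning included 2 paralog pairs. eIF1 and eIF1A keep the scanning ribosome open until the start codon is found. Eif1 was at 534 and 512 CPM in NPCs and at 494 and 529 CPM in neurons, overlapping and not called (log2 change -0.03 ± 0.06, edgeR adjusted p = 0.62). Eif1b was at 200.0 and 196 CPM in NPCs and at 159 and 160.4 CPM in neurons, higher in both NPC libraries (-0.31 ± 0.05, edgeR adjusted p = 4.9e-05). The start of the 2 coding sequences is shown because the pair had the highest share of identical bases of the 9 compared, at 81.1% of the aligned coding sequences. Gaps count as differences in that share. This lowers it for pairs of unlike lengths, such as Eif1a (762 coding bases) and Eif1ax (432) at 48.6%, so the pair need not be the most alike. It is from GENCODE M21 (GRCm38), coding bases 1 to 90, 5′ to 3′, with capitals where Eif1b differs from Eif1. Eif1 lies at chr11:100319885-100322096 and Eif1b at chr9:120492232-120495330, both on the plus strand.
Eif1: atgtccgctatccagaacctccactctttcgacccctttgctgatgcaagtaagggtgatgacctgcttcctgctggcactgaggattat
Eif1b: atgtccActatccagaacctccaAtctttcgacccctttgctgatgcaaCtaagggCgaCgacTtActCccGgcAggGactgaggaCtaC
These stretches differed at 13 of 90 bases, and no 101-base window was shared between annotated transcripts of the pair. Of the windows of Eif1, 12.3% also occurred in other genes, and of those of Eif1b none did.

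The eIF1A pair moved in opposite directions. Eif1ax, the X-linked copy, was at 120.4 and 116 CPM in NPCs and at 99.8 and 96.6 CPM in neurons (log2 change -0.27 ± 0.05, edgeR adjusted p = 3.4e-04). Eif1a was at 66.0 and 66.4 CPM in NPCs and at 83.9 and 76.4 CPM in neurons (0.28 ± 0.06, edgeR adjusted p = 6.6e-04, and 0.07 with library size as the only scaling). Neither pair of groups overlapped. Eif1ad, which encodes a protein with an eIF1A domain, was higher in NPCs at -0.19 ± 0.06, and 16.7% of its exon bases overlap Banf1 on the other strand. Eif5, the factor that makes eIF2 hydrolyse its GTP at the start codon, was at 520.5 and 538 CPM in NPCs and at 646 and 573 CPM in neurons (0.20 ± 0.06, or -0.0043 with library size as the only scaling). Of the late-acting factors, Eif5b, the GTPase that joins the ribosomal subunits, was at 164 and 158 CPM in NPCs and at 181 and 172 CPM in neurons (0.13 ± 0.05, or -0.08 with library size as the only scaling). Its value is uncertain, since 21.1% of its exon bases overlap Rev1 on the other strand. Eif6, which keeps the subunits apart, was not called. Its log2 change was -0.13 without neuron replicate 1 and 0.07 without neuron replicate 2. Eif5a, which carries the modified amino acid hypusine and helps ribosomes past difficult stretches, was at 821 and 792 CPM in NPCs and at 779 and 707 CPM in neurons (-0.12 ± 0.06, edgeR adjusted p = 0.083). Its log2 change was -0.18 without neuron replicate 1 and -0.04 without neuron replicate 2. Its paralog Eif5a2 was at 19.7 and 20.5 CPM in NPCs and at 18.1 and 18.7 CPM in neurons and was not called (-0.13 ± 0.08, edgeR adjusted p = 0.17).

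Ratios of paralogs within a library do not depend on the scaling between libraries. They are given as values without a test, since an exact permutation of 2 libraries against 2 cannot pass the threshold. The log2 ratio of the Eif4a2 level to the Eif4a1 level was -1.64 and -1.62 in NPCs and -0.66 and -0.80 in neurons. The log2 ratio of Eif4ebp2 to Eif4ebp1 was 0.21 and 0.33 in NPCs and 2.39 and 2.93 in neurons. The ratios of Eif4g3 to Eif4g1 (-0.73 and -0.73 against -0.11 and -0.25) and of Eif1a to Eif1ax (-0.87 and -0.80 against -0.25 and -0.34) were also higher in both neuron libraries, as was that of Eif4g2 to Eif4g1 (3.48 and 3.54 against 4.04 and 4.03). Those of Eif4e3 to Eif4e (-3.51 and -3.54 against -4.30 and -4.27), Eif4e2 to Eif4e (-1.74 and -1.80 against -2.19 and -2.05) and Eif1b to Eif1 (-1.42 and -1.38 against -1.64 and -1.72) were lower in both. The ratio of Eif5a2 to Eif5a overlapped between groups, at -5.38 and -5.27 in NPCs and -5.42 and -5.24 in neurons.

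**Figure D4:**
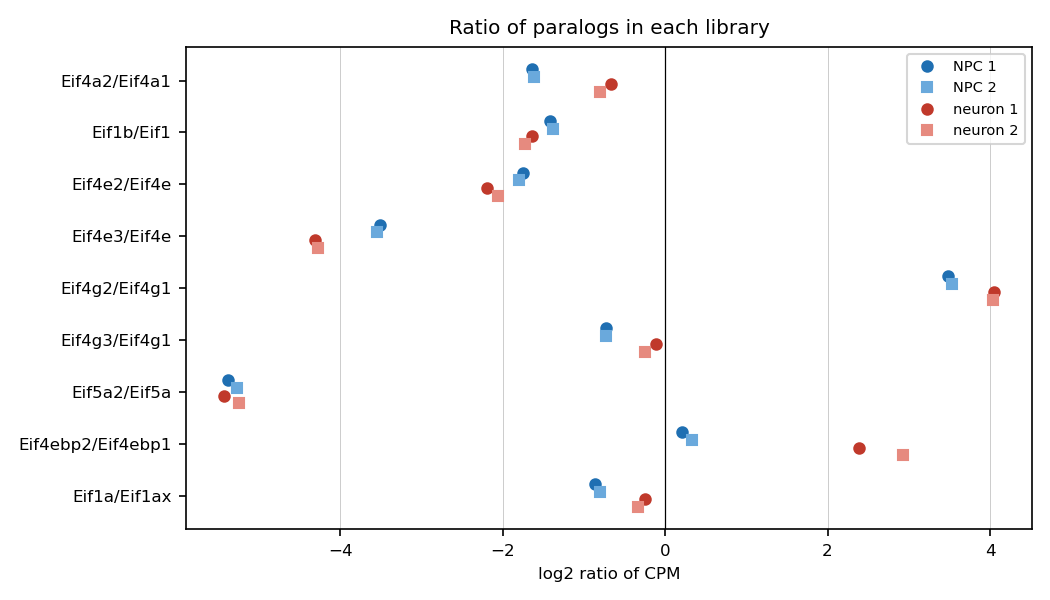
Log2 ratio of the CPM of 2 paralogs (horizontal axis) in each library, for 9 pairs (blue, NPCs; red, neurons; circles, replicate 1; squares, replicate 2). The groups separate for 8 pairs, most widely for Eif4ebp2 to Eif4ebp1 (0.21 and 0.33 against 2.39 and 2.93), and overlap for Eif5a2 to Eif5a. For levels of single genes, groups do not overlap for 86.0% of all tested genes.

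To compare genes with each other, levels were divided by the length of the merged exons in GENCODE M21, which is an approximation because the annotation behind the counts is not given in the sources used here. Per kilobase, Eif4a1 was the highest member in NPCs, at 544 ± 7.08 CPM per kb, followed by Eif1 (396 ± 11.6), Eif5a (339 ± 8.61), Eif4g2 (265 ± 12.3) and Eif3h (264 ± 1.75). Eif4g2 and Eif3h did not differ beyond their spread. In neurons these 5 genes were again the highest by mean. They were at 647 ± 32.0 CPM per kb for Eif4a1, 387 ± 18.9 for Eif1 and 313 ± 21.6 for Eif5a. Eif4g2 was at 296 ± 19.2 and Eif3h at 287 ± 6.71. The ranges of mean ± SD of the last 3 overlapped, although both neuron libraries of Eif5a were above both of Eif3h. Eif4a2 went from rank 16 in NPCs, at 97.7 ± 0.47 CPM per kb, to rank 7 in neurons, at 216 ± 4.41. The ratio of Eif4a2 to Eif4a1 per kilobase was 0.179 and 0.181 in NPCs and 0.351 and 0.318 in neurons. By this measure Eif4a1 had the higher level in all 4 libraries. The Eif4a1 level is uncertain, since 60.8% of its windows also occur in Eif4a-ps4. The lowest member per kilobase was Eif2ak2 in both groups, at 2.13 ± 0.10 CPM per kb in NPCs and 0.46 ± 0.01 in neurons, and Eif4ebp1 went from 6.75 ± 0.50 to 1.30 ± 0.14. Within eIF3, levels in NPCs ran from 13.8 CPM per kb for Eif3j to 264 for Eif3h.

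Other genes of translation were read from 5 lists. Of 13 elongation and termination genes, 4 rose in neurons and 3 fell, and the median log2 change was 0.04. Eef1a2, the elongation factor gene of mature neurons and muscle, went from 0.243 and 0.268 CPM to 2.46 and 3.18 CPM (log2 change 3.45 ± 0.30). Eef1d, a subunit of its exchange factor, fell from 135 and 129 CPM to 83.0 and 86.0 CPM (-0.64 ± 0.06). Eef1a1, the most abundant gene of the list, was at 6553 and 6471 CPM in NPCs and at 5738 and 7032 CPM in neurons and was not called (-0.03 ± 0.08). Its log2 change was 0.12 without neuron replicate 1 and -0.174 without neuron replicate 2. Of 20 partners of cap and start site, 7 rose in neurons and 8 fell (5 without NPC replicate 2), and the median log2 change was -0.01. Bzw2, which encodes an eIF5-like protein, rose from 272 and 271 CPM to 675 and 697 CPM (1.34 ± 0.05), while its paralog Bzw1 was not called (-0.01 ± 0.05). Mcts1, which acts in ribosome recycling and reinitiation, rose from 32.2 and 32.7 CPM to 73.8 and 74.8 CPM (1.19 ± 0.06).

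Of 20 genes of mTORC1 signalling, which acts on the 4E-binding proteins, 8 rose in neurons (5 without NPC replicate 2) and 7 fell (4 without NPC replicate 1), and the median log2 change was -0.02. Rhebl1 and Rheb, which encode GTPases of the kind that activates mTORC1, rose at 1.13 ± 0.09 and 0.26 ± 0.06. With library size as the only scaling, Rheb was at 0.05 and was not called. Rragd, a Rag GTPase of amino acid sensing, fell at -0.64 ± 0.07. Of 13 genes of the integrated stress response, the pathway of the eIF2 kinases, 4 rose in neurons and 6 fell, and the median log2 change was -0.22. The list includes the kinase gene Eif2ak3, which was not called. Nck1, an adaptor known to bind the eIF2 phosphatase, fell from 38.4 and 40.5 CPM to 12.7 and 14.2 CPM (-1.55 ± 0.08). Asns, the asparagine synthetase gene and a target of the transcription factor ATF4, rose from 36.4 and 35.8 CPM to 78.7 and 70.0 CPM (1.04 ± 0.07), and Atf4 itself fell at -0.22 ± 0.06, though it was not called without NPC replicate 1 (-0.20). Of 5 partners of Eif4a3 in the exon junction complex, 3 were higher in NPCs and 1 in neurons, and none was called without NPC replicate 1. Magoh and Rbm8a, the pair that locks eIF4A3 on RNA, fell at -0.21 ± 0.06 and -0.20 ± 0.05. These counts are to be read against the 35.8% and 36.9% of all tested genes called higher in neurons and in NPCs.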

How the data were processed

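The authors deposited one table with an estimated count per gene for each of the 4 libraries, not scaled between libraries. The tools named in the submitters' processing notes, without their roles, are TopHat 1.2.0, SAMtools 0.1.18 and CASAVA 1.9, and the build named there is mm9. How reads were counted (tool, gene models, strand, reads that align more than once) is not given in the sources used here, so overlapping genes and near-copies are uncertain. All 65205 values above 0 and below 10000 were multiples of 1 base in a read of 101 bases, within 0.01 base. Estimated counts were rounded to whole numbers. The filterByExpr function kept 15292 of 23240 rows, and libraries were scaled with TMM factors (1.08, 1.07, 0.928 and 0.933). Groups were taken from the sample titles and compared with edgeR 4.0.16 (R 4.3.3), using its two-sided quasi-likelihood test, with 2 residual degrees of freedom. The SE was taken from the log2 change and the square root of the F value, as their quotient. The test was checked on simulated counts. Duplicates differed by more than sampling noise (chi-square per gene of 4.56 for NPCs and 14.1 for neurons) and were kept as separate samples.

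Members, gene lists and tests were chosen with earlier results of these data known. Values per library were to be given for members called with a log2 change of at least 0.5 and a mean of at least 5 CPM and for 9 paralog pairs. In each list the 2 genes with the smallest p and the most abundant gene were to be named. Other members given per library were picked after their values were seen. The 12 alternatives were other scalings (RLE, upper-quartile, library size only), DESeq2 1.42.0, limma-voom (limma 3.58.1), no filter, a filter of 5 CPM in at least 2 libraries, a replicate block, and leaving out each library. GENCODE M21 (GRCm38) gave exon lengths, overlaps and transcript sequences for all 52 members, 1 of them (Eif3j) under another symbol. It was not matched to the mm9 models behind the counts. Windows were compared by exact match and on the transcript strand only.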

Additional observations from a re-analysis of the deposited data

How the results depend on the processing

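DESeq2, RLE factors and no low-count filter changed no call among the 51 tested members. Initiation factor genes higher in neurons numbered 13, and 7 with upper-quartile factors, 2 with library size only and 7 to 15 when 1 library was left out. Those higher in NPCs numbered 12, and 27, 36 and, with a filter of 5 CPM, 19. Of all 15292 tested genes, 5467 were higher in neurons, and 4609 and 3840 under the 2 other scalings. Those higher in NPCs were 5641, 6582 and 7610. With the filter of 5 CPM, 4342 and 4344 of 11371 tested genes were higher in neurons and in NPCs. The median log2 change of the members was -0.136, -0.242 and -0.072 under those 3 settings, which move the scaling of every gene. Of genes called in the main or the alternative analysis, with library size only the log2 change changed sign for Eif3f (-0.19), Eif2b5 (-0.18), Eif2b1 (-0.18), Eif3c (-0.16), Eif3m (-0.16), Eif3h (-0.0853), Eif5b (-0.0753), Eif4g2 (-0.0483), Eif2s3x (-0.0425), Eif4g3 (-0.0314) and Eif5 (-0.0043). Of the same kind, Eif2s2 changed sign without neuron replicate 2 (0.11), and Eef1a1 without neuron replicate 1 (0.122, against -0.1737 without neuron replicate 2). Another 33 sign changes over all settings were of genes called in neither, such as Eif3k (-0.101) and Eif4ebp2 (-0.183) with library size only and Eif6 (0.0736) without neuron replicate 2. For the lists, library size only gave 7 elongation genes higher in NPCs, 3 cap and start site partners higher in neurons, 2 mTORC1 genes higher in neurons and 11 in NPCs, and 0 exon junction genes higher in neurons. Upper-quartile factors gave 5 mTORC1 genes and 0 exon junction genes higher in neurons, and the filter of 5 CPM gave 2 stress response genes higher in neurons. Leaving out 1 library gave 3 to 7 elongation genes higher in neurons, 5 to 8 cap and start site partners higher in NPCs, 5 to 9 mTORC1 genes higher in neurons and 4 to 6 in NPCs, and 0 to 1 and 0 to 3 exon junction genes higher in neurons and in NPCs. The causes of the other shifts were not tested. The labels do not say whether libraries with the same number come from the same embryos. The deviations of same-numbered libraries had a correlation of 0.03 over genes, which cannot settle this. With the replicate block, 11 members rose in neurons and 14 fell, with Eif3h and Eif4g2 no longer called and Eif2ak1 and Eif4a3 called. With 2 libraries a group and a median SE of 0.06 for the members, many log2 changes below 0.15 were not detectable.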
